A study of Mus musculus with 3 samples.

Results

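The genes described here are 8 genes named as chromosome 5 neighbours of the Dspp locus: Aff1, Klhl8, Hsd17b11, Nudt9, Sparcl1, Pkd2, Abcg2 and Ppm1k. They were taken by symbol from a table of 26970 genes measured in 3 libraries, and all 8 had a row. The positions in the table did not bear out the name for every gene. 6 of the 8 lay on chromosome 5, and the other 2, Abcg2 and Ppm1k, lay on chromosome 6. In the human genome ABCG2 and PPM1K sit beside PKD2, so they are neighbours of the locus there and not in the mouse. Dspp itself had no row of that name in the table and was not analysed here.

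RNA was measured in mandibular condyles of mice aged 4 months, the jaw side of the temporomandibular joint, with cartilage and the underlying bone interface kept together. The groups were wild-type mice (WT, Dspp+/+), heterozygous mice (Dspp+/-) and homozygous null mice (Dspp-/-), with 1 library each. All carried a C57BL/6 background, and the deletion was global, not limited to a cell type by a Cre driver. The WT and Dspp+/- libraries each came from the combined tissue of 3 animals, and the number behind the Dspp-/- library was not given. They are called the WT, heterozygous and null libraries below, and values listed in a row follow that order. With 1 library per genotype no test between genotypes was possible, and no p-value is given. All intervals below cover counting error alone, not the spread between animals or between libraries.

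Dspp encodes dentin sialophosphoprotein, which is cut into the mineral-binding proteins of dentin. It belongs to a family of small secreted phosphoproteins that bind integrins and mineral, whose other genes, Dmp1, Ibsp, Mepe and Spp1, stand in a row beside it and are transcribed in bone-forming cells, in osteocytes and, for Spp1, in osteoclasts as well. The genes on the outside of this row have unrelated tasks. Sparcl1 encodes a secreted matrix glycoprotein related to SPARC, and the phosphoprotein genes are thought to descend from a gene of this kind. Pkd2 encodes polycystin 2, a cation channel of the primary cilium that is altered in polycystic kidney disease. Nudt9 encodes a mitochondrial hydrolase of ADP-ribose, Hsd17b11 a lipid-droplet dehydrogenase, Klhl8 a substrate adaptor of a ubiquitin ligase, and Aff1 a scaffold of the super elongation complex that releases paused RNA polymerase. Abcg2 encodes an efflux transporter with a role in stem and red cell precursors, and Ppm1k the phosphatase that switches on branched-chain ketoacid dehydrogenase.

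Promoter sequences are shown for a pair of neighbour genes and a pair of the matrix phosphoprotein genes they enclose. Whether promoter sequence has a part in the levels described further on was not tested. Each runs 5′ to 3′ on the strand of the gene from 250 bases before to 50 bases after a start, taken from RefSeq on GRCm38.p6, with each CG dinucleotide in capitals. Nudt9 is at chr5:104046614-104046913, Pkd2 at chr5:104459207-104459506, Ibsp at chr5:104299037-104299336 and Spp1 at chr5:104434861-104435160, all on the forward strand.
Nudt9: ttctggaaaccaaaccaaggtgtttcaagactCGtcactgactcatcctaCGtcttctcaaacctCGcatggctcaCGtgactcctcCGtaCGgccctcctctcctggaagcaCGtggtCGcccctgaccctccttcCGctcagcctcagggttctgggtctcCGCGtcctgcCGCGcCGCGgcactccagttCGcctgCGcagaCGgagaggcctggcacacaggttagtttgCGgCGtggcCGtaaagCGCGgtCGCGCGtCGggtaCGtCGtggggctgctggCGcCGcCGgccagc
Pkd2: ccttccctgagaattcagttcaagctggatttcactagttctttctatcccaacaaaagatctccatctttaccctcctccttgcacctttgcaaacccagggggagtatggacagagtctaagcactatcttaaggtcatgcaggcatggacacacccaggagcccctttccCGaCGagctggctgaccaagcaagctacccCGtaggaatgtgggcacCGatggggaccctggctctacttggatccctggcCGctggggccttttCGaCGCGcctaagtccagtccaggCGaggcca
Ibsp: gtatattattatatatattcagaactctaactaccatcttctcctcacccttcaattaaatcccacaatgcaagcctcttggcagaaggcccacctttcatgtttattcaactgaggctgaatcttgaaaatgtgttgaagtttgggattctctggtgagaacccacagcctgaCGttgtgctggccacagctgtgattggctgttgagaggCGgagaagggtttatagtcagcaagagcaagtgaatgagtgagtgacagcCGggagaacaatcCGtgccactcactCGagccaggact
Spp1: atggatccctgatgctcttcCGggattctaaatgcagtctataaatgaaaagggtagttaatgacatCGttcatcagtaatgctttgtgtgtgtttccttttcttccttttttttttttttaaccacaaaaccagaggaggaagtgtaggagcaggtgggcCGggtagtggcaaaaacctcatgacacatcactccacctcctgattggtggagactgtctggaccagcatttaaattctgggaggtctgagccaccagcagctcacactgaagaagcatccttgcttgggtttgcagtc

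The Nudt9 stretch held 32 CG dinucleotides and the Pkd2 stretch 9, against 5 for Ibsp and 3 for Spp1. The median over 32851 promoters of this length was 7, and 43.5% of them held 10 or more. Entries were found for 6 of the 8 genes, Sparcl1 and Klhl8 being the exceptions, and gave 9 starts, of which 7 held 10 or more CG. Aff1 had 40 and 22 at its separate starts, Hsd17b11 had 18, Ppm1k 16, and Abcg2 had 3, 10 and 28. None of the 6 starts of Dmp1, Ibsp, Mepe and Spp1 reached 10. The core motif bound by Runx2, searched as ACCACA on both strands, was present in 16.8% of all promoters. Among the 9 starts of the neighbour genes it was found at 1 start of Abcg2, and among the 6 starts of the matrix genes at 1 start each of Dmp1, Mepe and Spp1. A match of letters is a description and not a bound site.

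The values were fragments per kilobase of exon, scaled to the depth of the library (FPKM). Multiplied by exon length they came out as whole fragments, which put the depths at 20241576, 23613626 and 22253165 fragments. At these depths 1 fragment in a 1 kb transcript was worth 0.0423 to 0.0494 FPKM, and each of the 8 genes rested on at least 326 fragments per library. The libraries differed in composition as well as in genotype. The summed level of 12 erythroid genes was 904, 3796 and 3669 FPKM, and that of 10 osteoblast genes was 11874, 3166 and 6524 FPKM. Chondrocyte markers summed to 1767, 486 and 760 FPKM, osteoclast markers to 2296, 830 and 1348 FPKM and fibroblast and tendon markers to 2131, 1304 and 1608 FPKM. Neutrophil markers summed to 611, 2739 and 3588 FPKM, B cell markers to 219, 370 and 395 FPKM and macrophage markers to 190, 164 and 164 FPKM. Mitochondrial genes held 25%, 36.9% and 37.3% of all FPKM, and the sum over 11 skeletal muscle genes was 11941, 16573 and 13254 FPKM. Xist stood at 0.00551 FPKM in the WT library and at 28.5 and 26.5 FPKM in the mutant libraries. The Y-linked gene Ddx3y was present in all 3 at 22.5, 11.1 and 15.1 FPKM, so both mutant libraries held Xist and Y-linked RNA while WT held almost no Xist, and the sex makeup of the pools and the genotype cannot be told apart. The part of cell composition and sex in the values below was not tested, and in bulk tissue fewer cells of a type and less RNA per cell cannot be told apart. None of the cell type markers was at 0 in any library.

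The first question was whether the genes beside the deleted locus differed from WT. None of the 8 genes differed 2-fold from WT, on the scale of the log2 ratio of FPKM + 1, in Dspp+/- or in Dspp-/-. All 8 averaged 1 FPKM or more over the libraries. Of the 13026 genes that did so, the share past 2-fold in either direction was 7.75% in Dspp+/- and 5.42% in Dspp-/-. A count of 0 among 8 genes is therefore near the background. The neighbours were not at one level either. Their fold against WT ran from 0.682 for Pkd2 to 1.75 for Ppm1k in the heterozygous library, and from 0.723 for Klhl8 to 1.85 for Ppm1k in the null library. In each mutant 5 of the 8 were above WT and 3 below, though Aff1 sat so close to WT that its side turned with the scaling. The median log2 ratio over the 8 genes was 0.02 in Dspp+/- and 0.06 in Dspp-/-, beside 0.058 and 0.007 over all genes. The mutants share the WT library, so their ratios are not independent.

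The enclosed matrix genes stood apart in size. Ibsp, which encodes bone sialoprotein, was at 1643, 433 and 685 FPKM. Spp1, which encodes osteopontin, was at 2474, 814 and 1661 FPKM. Dmp1, an osteocyte phosphoprotein gene, was at 191, 70.4 and 79.5 FPKM, and Mepe, another osteocyte gene, at 369, 107 and 124 FPKM. Against WT, 4 of 4 were past 2-fold lower in the heterozygous library, with folds of 0.263 to 0.37. In the null library 3 of 4 were, with folds of 0.337 to 0.417, while Spp1, at 0.671, was not. Of all genes, 2.86% and 1.37% were past 2-fold lower. The lowest fold of any neighbour on chromosome 5, 0.682 (95% counting interval 0.655 to 0.71), lay above the highest fold of a matrix gene in Dspp+/-. In Dspp-/- the folds of the chromosome 5 neighbours, 0.723 to 1.21, lay above that of Spp1 by a small margin, 0.671 (0.664 to 0.678), which fell within the counting intervals of Klhl8 and Nudt9. The osteoblast list moved with the matrix genes, 9 of its 10 genes being past 2-fold lower in Dspp+/- and 2 in Dspp-/-, and its part in their values was not tested.

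In the order of the chromosome the genes run Aff1, Klhl8, Hsd17b11, Nudt9, Sparcl1, then Dmp1, Ibsp, Mepe and Spp1, then Pkd2, over 813 kb from the start of Aff1 to the end of Pkd2. The stretch from the start of Dmp1 to the end of Spp1 covers 238 kb. Sparcl1 ends 88.9 kb before Dmp1 and Pkd2 begins 18.4 kb after Spp1. The sign of the log2 ratio did not follow the distance from this stretch. In Dspp+/- Sparcl1, the nearest gene before the row, was at 0.39, and Pkd2, the nearest after it, was at -0.53. The next genes outward, Nudt9 at 137 kb and Hsd17b11 at 181 kb, were at -0.30 and -0.22, and Klhl8 at 291 kb and Aff1 at 347 kb were at 0.04 and 0.01. In size these Dspp+/- ratios fell with distance from the nearer end of the stretch, for these named genes alone. Dspp had no row, so distance from it could not be measured. From the Dmp1 start to the gene midpoint the order was absent. Pkd2 lay at 280 kb, further out than Sparcl1 at -106 kb, Nudt9 at -147 kb and Hsd17b11 at -197 kb. Other genes did not keep the order. Beyond Aff1, Slc10a6 was at 0.21 and Ptpn13 at -1.07. After Pkd2, Thoc2l was at -0.12 and Gbp4, further out, at 0.51. The order from the nearer end also changed with the scaling. Scaled to housekeeping genes, Sparcl1 was at 0.17 and Nudt9 at -0.51, and under median-ratio scaling they were at 0.32 and -0.37. Scaled without mitochondrial genes, Sparcl1 was at 0.5 and Pkd2 at -0.42. Each of these scalings broke the order. In Dspp-/- the order was absent, with Pkd2 at -0.33, Sparcl1 at 0.28, Nudt9 at -0.42, Hsd17b11 at 0.10, Klhl8 at -0.39 and Aff1 at 0.01. Klhl8 lay below WT in Dspp+/- under 2 of the 7 other settings tried, so its side was not settled. Within 1 Mb of the stretch the table held 37 genes, 19 of which averaged 1 FPKM or more. Of these 19, 6 were past 2-fold lower and 0 higher in Dspp+/-, and 3 lower and 0 higher in Dspp-/-, against 2.86% and 1.37% of all genes past 2-fold lower. The matrix genes made up 4 of the 6 and 3 of the 3. The other 2 were Ptpn13 and Gm42793, which lies inside Spp1.

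**Figure D1:**
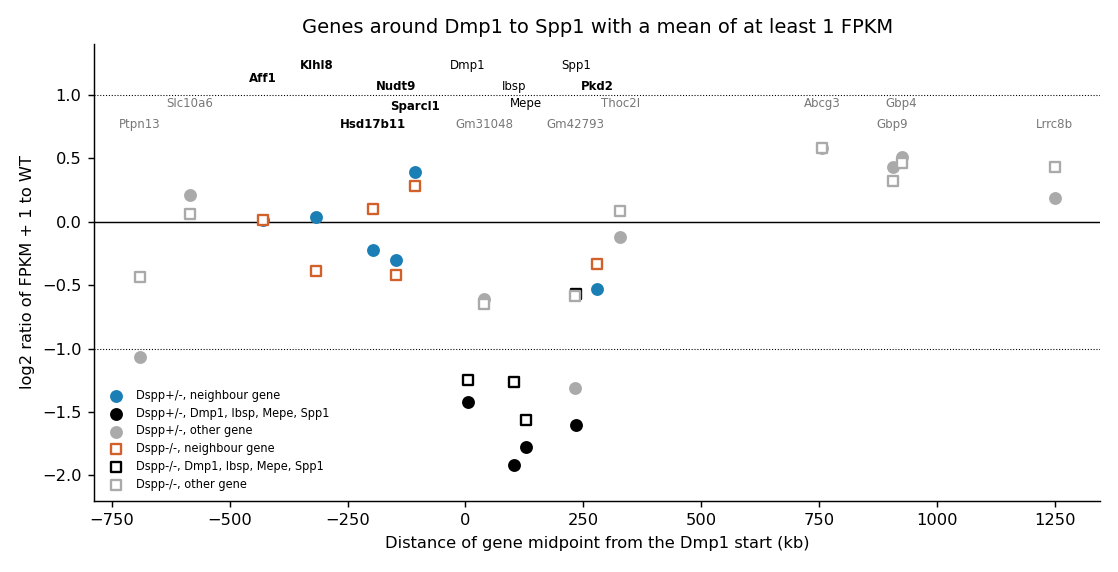
The log2 ratio of FPKM + 1 to WT (vertical axis) against the distance of each gene's midpoint from the Dmp1 start in kb (horizontal axis), with filled circles for Dspp+/- and open squares for Dspp-/-, 1 library each. The 6 chromosome 5 neighbours lie between -0.53 and 0.39 on both sides of the matrix genes, which lie between -1.92 and -0.57.

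The levels of the 8 genes spanned a wide range in the WT condyle. Sparcl1 was the highest at 79.8 FPKM (95% counting interval 77.5 to 82.1) and Ppm1k the lowest at 2.67 FPKM (2.39 to 2.98). Pkd2 came next to Sparcl1 at 26.8 FPKM (26.1 to 27.5). Aff1 at 15.5, Hsd17b11 at 14.3 and Nudt9 at 13.3 FPKM followed, and in this run each gene's counting interval overlapped that of the next. Abcg2 at 6.13 and Klhl8 at 6.0 FPKM also overlapped. The order held in Dspp+/-, where the intervals of Hsd17b11 and Nudt9 still overlapped and those of Abcg2 and Klhl8 did not. In Dspp-/- Ppm1k, at 4.94 FPKM (4.57 to 5.33), stood above Klhl8, at 4.34 FPKM (3.89 to 4.83), with overlapping intervals. Among all 26970 genes of the table, low ones included, Sparcl1 ranked 387 by level in WT and exceeded 98.6% of them, while Ppm1k exceeded 64.5%.

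**Figure D2:**
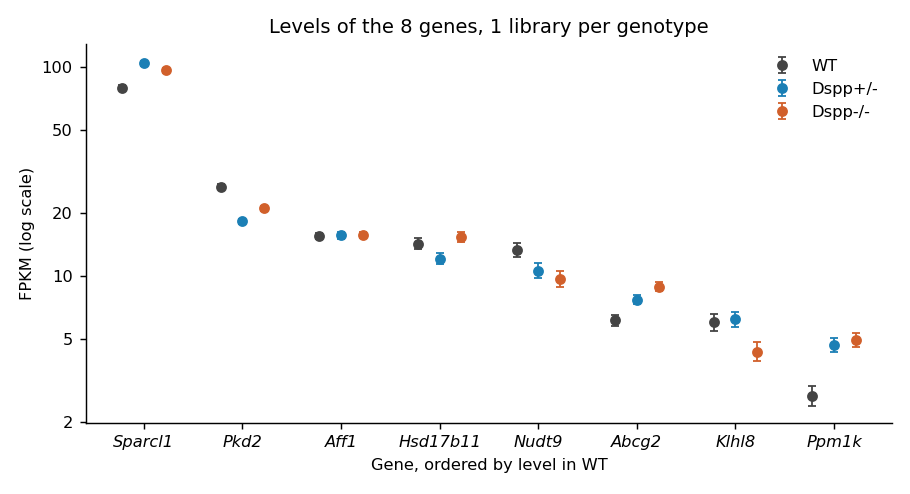
FPKM on a log axis of the 8 genes in the WT, Dspp+/- and Dspp-/- libraries, 1 point per library, with bars for the 95% counting interval. Sparcl1 is the highest in all 3 libraries, and the lowest place passes from Ppm1k in WT to Klhl8 in Dspp-/-.

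Sparcl1 (ENSMUSG00000029309), on the reverse strand at chr5:104226977-104261599 in the table, encodes a matrix glycoprotein made by vessel-associated and stromal cells. It was at 79.8, 105 and 96.8 FPKM, from 4742, 7274 and 6326 fragments. The WT library was the lowest of the 3. The fold against WT was 1.31 (1.27 to 1.36) for the heterozygous library and 1.21 (1.17 to 1.26) for the null library. Sparc, which encodes its relative, an abundant non-collagenous protein of bone matrix, was at 4675, 1245 and 2401 FPKM, a fold of 0.266 in Dspp+/- and 0.514 in Dspp-/-. Sparcl1 and Sparc thus stood on opposite sides of WT in both mutants. Of the 5 other SPARC family genes that averaged 1 FPKM or more, 1 was past 2-fold lower in Dspp+/-, which was Sparc, against 2.86% of all genes, and 0 in Dspp-/-, with median log2 ratios of -0.54 and -0.28. The sum over 10 endothelial genes was 208, 233 and 219 FPKM, and none of them was past 2-fold. The sum over the smooth muscle and pericyte list was 802, 975 and 743 FPKM, of which Des, a gene that skeletal muscle also transcribes, held 517, 663 and 429 FPKM. Rgs5, a pericyte marker, was at 152, 195 and 201 FPKM, with WT the lowest as for Sparcl1. Others of that list were highest in WT, among them Pdgfrb at 41.3, 29.3 and 31.7 FPKM and Cspg4 at 17.5, 9.1 and 9.32 FPKM. Of its 8 genes averaging 1 FPKM or more, 4 were above WT and 4 below in Dspp+/-. In Dspp-/- 3 were above and 5 below. The part of vessel-associated cells in the Sparcl1 value was not tested.

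Pkd2 (ENSMUSG00000034462), on the forward strand at chr5:104607316-104653685, was the chromosome 5 neighbour furthest from WT in Dspp+/-. It was at 26.8, 18.3 and 21.1 FPKM, from 5511, 4384 and 4778 fragments. Both mutant libraries were below WT and Dspp-/- lay between. The fold against WT was 0.682 (0.655 to 0.71) for the heterozygous library and 0.789 (0.758 to 0.82) for the null library. In Dspp+/-, 76.7% of all genes had a smaller log2 ratio in size, and in Dspp-/- 60.2%. Pkd1, whose product polycystin 1 forms the receptor and channel complex with polycystin 2, was at 29.9, 20.5 and 21.1 FPKM, which gave folds of 0.687 and 0.706. Both partner genes were thus lower in both mutants. Pkd2l2, the other family member that averaged 1 FPKM or more, was at 1.85, 2.06 and 2.31 FPKM, and neither was past 2-fold, with medians of -0.21 and -0.13 over both. Among 12 genes of ciliary transport none was past 2-fold, and the medians were -0.16 and -0.07. Ift20, which carries cargo from the Golgi to the cilium, was at 25.8, 13.9 and 16.9 FPKM, whereas Ift140, a retrograde transport subunit, had log2 ratios of 0.64 and 0.40.

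Nudt9 (ENSMUSG00000029310), on the forward strand at chr5:104194172-104213245, was below WT in both mutants. It was at 13.3, 10.6 and 9.69 FPKM, from 645, 599 and 516 fragments. The fold against WT was 0.796 (0.711 to 0.891) for the heterozygous library and 0.728 (0.647 to 0.818) for the null library. The interval of Dspp-/- against Dspp+/-, 0.811 to 1.03, included 1. Gm43545 lies on the other strand over 35.7% of the exon length of Nudt9, and reads of overlapping genes cannot be told apart where no strand is kept, so the Nudt9 value is uncertain to that extent. Gm43545 was given 0.09, 0.17 and 0.05 FPKM. Of 16 other Nudix hydrolase genes none was past 2-fold in Dspp+/-, and in Dspp-/- 1 was, Nudt22, at 12.9, 7.55 and 5.90 FPKM, against 1.37% of all genes past 2-fold lower. Nudt18 had a fold of FPKM of 0.487 (0.401 to 0.589) in Dspp-/-, but was not past 2-fold on the scale of FPKM + 1. The medians were 0.10 and -0.05, and Nudt4, an inositol pyrophosphate hydrolase gene, was at 108, 106 and 111 FPKM.

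Hsd17b11 (ENSMUSG00000029311), on the reverse strand at chr5:104137628-104169785, had its mutant libraries on opposite sides of WT. It was at 14.3, 12.1 and 15.4 FPKM, from 944, 935 and 1119 fragments. The fold was 0.849 (0.775 to 0.93) in Dspp+/-, and in Dspp-/- it was 1.08 with an interval, 0.988 to 1.18, that included 1. Dspp-/- against Dspp+/- gave 1.27 (1.16 to 1.39). The interval for Dspp-/- therefore did not set it apart from WT, while that between the mutants did set them apart. Its protein sits on lipid droplets, and 9 genes of the droplet coat gave a median log2 ratio of 0.34 in Dspp+/- and 0.51 in Dspp-/-. In Dspp+/- 1 of the 9 was past 2-fold higher, Plin5, a perilipin of oxidative tissue, at 5.26, 19.0 and 6.37 FPKM. In Dspp-/- 3 were, the fat cell genes Cidec, Plin1 and Cidea. Over all genes 4.88% and 4.05% were past 2-fold higher. Cidec was at 2.26, 1.62 and 9.90 FPKM and Plin1 at 1.41, 0.501 and 4.61 FPKM, both lowest in Dspp+/-. The other droplet genes besides Cidea, among them Pnpla2 at 48.4, 92.5 and 72.5 FPKM, were above WT in Dspp+/-, where Hsd17b11 was below it. The sum over 9 adipocyte genes was 108, 173 and 231 FPKM, of which Lpl held 120 FPKM in Dspp+/-. Of the 8 that averaged 1 FPKM or more, 4 were above WT and 4 below in Dspp+/-, with a median of -0.09. Lpl, at a log2 ratio of 1.24, was the 1 past 2-fold higher there, and Cfd, at -1.37, the 1 past 2-fold lower. In Dspp-/- all 8 were above WT, with a median of 1.06. The part of fat cells in the Hsd17b11 value was not tested. None of the 4 other 17beta-hydroxysteroid dehydrogenase genes that averaged 1 FPKM or more was past 2-fold, with medians of 0.04 and -0.02. Hsd17b13, which lies next to Hsd17b11, had 1 fragment in WT and 0 in each mutant.

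Klhl8 (ENSMUSG00000029312), on the reverse strand at chr5:104009839-104059125, was the chromosome 5 neighbour in which Dspp-/- stood apart from the other libraries. It was at 6.0, 6.19 and 4.34 FPKM, from 424, 510 and 337 fragments. The fold was 1.03 (0.905 to 1.18) in Dspp+/-, so no difference was detectable at this depth, and 0.723 (0.625 to 0.836) in Dspp-/-. Dspp-/- against Dspp+/- gave 0.701 (0.609 to 0.806), the lowest of the 8 genes in that comparison, and 83.7% of all genes had a smaller log2 ratio in size there. Of 17 other genes for kelch-like adaptors and their ligase none was past 2-fold in either mutant, with medians of 0.09 and 0.06. Cul3, the cullin to which these adaptors bind, was at 30.4, 40.4 and 42.3 FPKM, and Klhl24 at 22.9, 28.8 and 32.6 FPKM, both higher in the mutants.

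Aff1 (ENSMUSG00000029313), on the forward strand at chr5:103840240-104003188, was at 15.5, 15.7 and 15.7 FPKM, from 2976, 3498 and 3301 fragments. The 3 libraries were within the counting error of each other. The folds were 1.01 (0.959 to 1.06) and 1.01 (0.96 to 1.06) against WT and 1.00 (0.955 to 1.05) between the mutants. The log2 ratio was 0.01 in both, and it was below 0 under 3 of 7 other settings in Dspp+/- and 2 of 7 in Dspp-/-. Of all genes, 2.19% in Dspp+/- and 2.56% in Dspp-/- had a smaller log2 ratio in size. Of 10 other genes of the super elongation complex and its partners none was past 2-fold, and the medians were -0.09 and 0.02. Aff4, which encodes the paralogous scaffold, was at 14.8, 13.1 and 16.4 FPKM, and Cdk9, the kinase of the complex, at 11.1, 11.1 and 10.4 FPKM. Mllt1, which encodes the chromatin reader ENL, had log2 ratios of -0.27 and -0.68.

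The 2 genes on chromosome 6 were above WT in both mutants. Ppm1k (ENSMUSG00000037826), on the reverse strand at chr6:57483487-57512453, was at 2.67, 4.68 and 4.94 FPKM, from 326, 666 and 662 fragments. Both mutants lay well above WT and close to each other. The fold against WT was 1.75 (1.53 to 2.01) for the heterozygous library and 1.85 (1.62 to 2.12) for the null library, and the interval between the mutants, 0.946 to 1.18, included 1. On the scale of FPKM + 1 Ppm1k was the one gene of the 8 past 1.5-fold, as were 20.5% of all genes in Dspp+/- and 17.1% in Dspp-/-. Its phosphatase acts on the breakdown of leucine, isoleucine and valine. The medians of 20 other genes of that pathway were 0.39 and 0.21, beside 0.058 and 0.007 over all genes. Of these 20 genes, 18 were above 0 in Dspp+/- and 17 in Dspp-/-, and none was past 2-fold on the scale of FPKM + 1. The part of muscle and mitochondrial content in these values was not tested. Aldh6a1, a late enzyme of valine breakdown, had log2 ratios of 0.65 and 0.79. Dld, the shared dehydrogenase subunit, was at 42.2, 62.8 and 56.5 FPKM, and Bckdk, the kinase that opposes Ppm1k, at 20.9, 26.7 and 23.6 FPKM. Bcat1, a cytosolic transaminase gene, went the other way at log2 ratios of -0.80 and -0.57, and its fold of FPKM, without the added 1, was 0.355 (0.292 to 0.43) in Dspp+/-.

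Abcg2 (ENSMUSG00000029802), on the forward strand at chr6:58561508-58672661, begins 1049 kb after the end of Ppm1k. The level was 6.13, 7.69 and 8.89 FPKM, from 1012, 1481 and 1613 fragments. The order was WT, Dspp+/-, Dspp-/-, with each interval of the fold excluding 1. The fold was 1.25 (1.16 to 1.36) in Dspp+/-, 1.45 (1.34 to 1.57) in Dspp-/- and 1.16 (1.08 to 1.24) between the mutants. Abcg2 is transcribed in red cell precursors and small vessels. All 12 erythroid genes were past 2-fold higher in both mutants, with median log2 ratios of 2.78 and 2.41, and all 10 neutrophil genes were too, with medians of 2.0 and 2.45. Over all genes, 4.88% and 4.05% were past 2-fold higher. Their part in the Abcg2 and Ppm1k values was not tested. Of 3 other ABCG genes that averaged 1 FPKM or more none was past 2-fold on the scale of FPKM + 1, and the medians were 0.42 and 0.18. Abcg3, the lowest of them, had folds of FPKM of 2.44 (1.67 to 3.63) and 2.42 (1.65 to 3.61), from 38 fragments in WT.

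**Figure D3:**
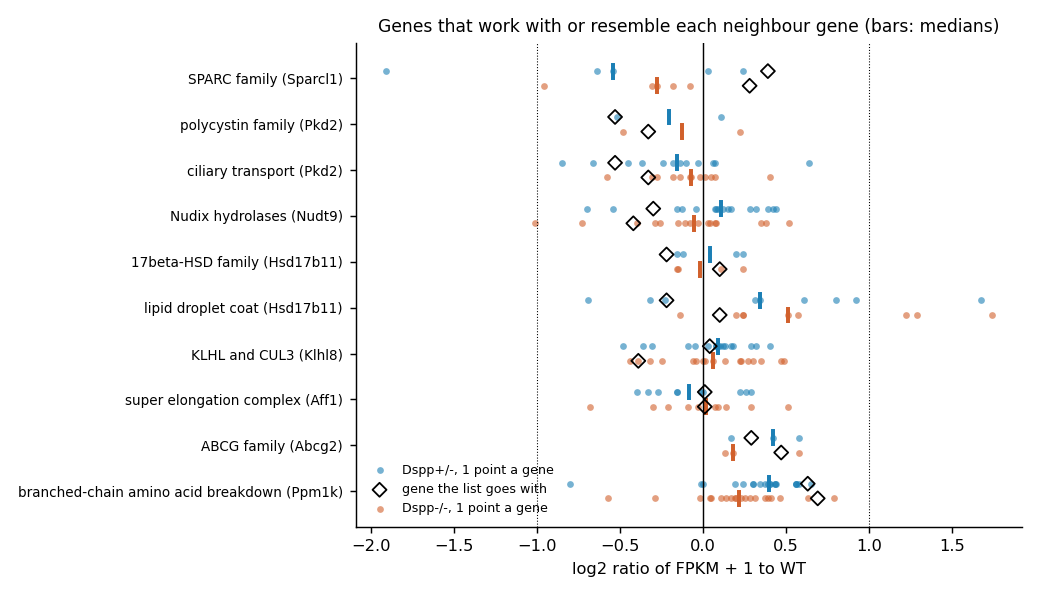
The log2 ratio of FPKM + 1 to WT of genes that resemble or work with each neighbour gene, 1 point per gene, blue for Dspp+/- and orange for Dspp-/-, with bars at the list medians and diamonds for the neighbour gene itself. Sparcl1 lies above the median of the SPARC family in both mutants, and Pkd2 lies beside Pkd1.

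Between the mutants the 8 genes were closer together than against WT. Over all genes the median size of the log2 ratio was also smaller there, 0.193 against 0.264 in Dspp+/- and 0.259 in Dspp-/-. For the 6 genes on chromosome 5 alone, the folds between the mutants, 0.701 to 1.27, reached beyond those of Dspp-/- against WT, 0.723 to 1.21. None was past 2-fold in Dspp-/- against Dspp+/-, where 1.65% of all genes were. The folds ran from 0.701 for Klhl8 to 1.27 for Hsd17b11, and the median log2 ratio was 0.03, beside -0.037 over all genes. The intervals of 5 of the 8 genes excluded 1, a share of 62.5% against 59.9% of 12711 genes with recovered fragments. Against WT the intervals of 6 of the 8 excluded 1 in each mutant, 75% against 67.6% of those genes. An interval clear of 1 was thus common at these depths. Spp1, in contrast, was 2.04-fold higher in Dspp-/- than in Dspp+/-.

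**Figure D4:**
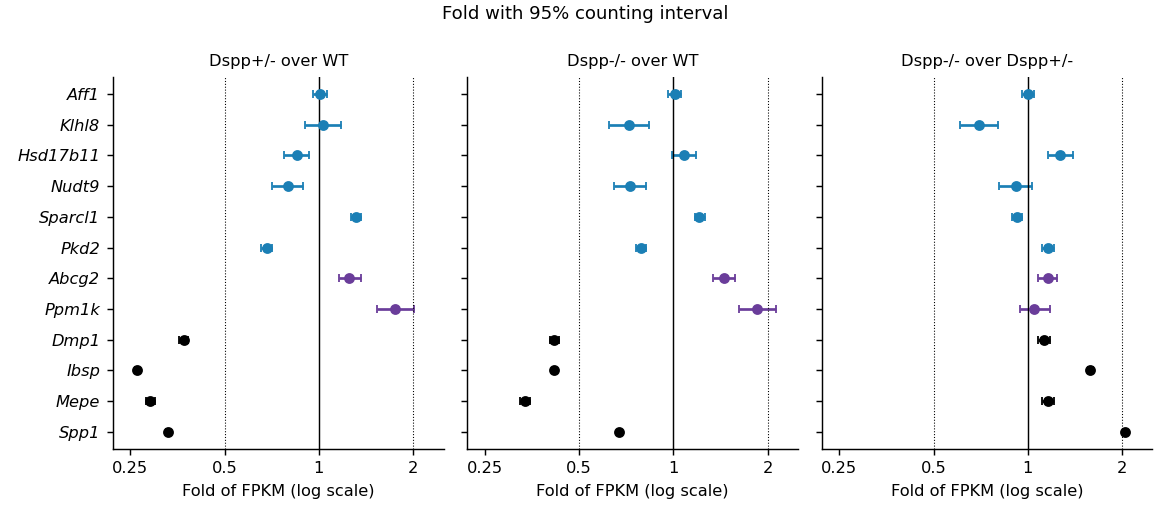
Fold of FPKM for the 8 genes and for Dmp1, Ibsp, Mepe and Spp1 on a log axis, for each mutant against WT and between the mutants, with bars for the 95% counting interval. The 8 genes lie between 0.682 and 1.85, and the 4 matrix genes lie between 0.263 and 0.671 against WT.

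Placed by both ratios to WT, the 8 genes were spread over the body of the distribution of all genes. The median size of the log2 ratio over all genes was 0.264 in Dspp+/- and 0.259 in Dspp-/-. The 5% and 95% points were -0.796 and 0.988 in the heterozygous library and -0.694 and 0.877 in the null library, and all 8 genes lay inside them. Likeness was measured as the straight-line distance between genes in the plane of the 2 log2 ratios, which rest on 3 libraries. Within a distance of 0.1 of Aff1 there were 725 other genes, the nearest being Yae1d1, Ubxn4 and Bmper. Ppm1k had 66 such genes, the nearest being Gm12250, Rb1 and Cbl, and Pkd2 had 140, the nearest being Net1, Ajm1 and Smoc2. For Sparcl1 there were 374, with Mat2a, Cct4 and Uspl1 nearest, and for Abcg2 238, with Ahr, Pdcd5-ps and Zfp729b nearest. The counts of the other 3 genes lay between those of Pkd2 and Sparcl1.

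**Figure D5:**
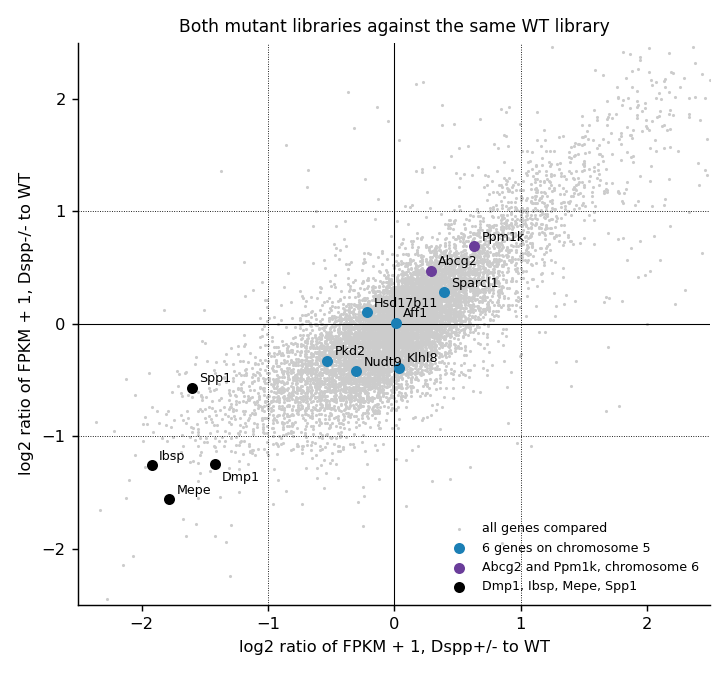
The log2 ratio of FPKM + 1 to WT in Dspp-/- (vertical axis) against that in Dspp+/- (horizontal axis) for genes averaging 1 FPKM or more, grey for all genes, with the 8 neighbour genes and the matrix genes marked, and 84 genes beyond the axes. The neighbour genes lie within the dense centre, from -0.53 to 0.63 along Dspp+/-, and the matrix genes lie to the lower left.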

How the data were processed

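Poly(A) RNA of mandibular condyles was sequenced as paired reads in 3 libraries, 1 per genotype. The deposited table holds 1 value per gene and library. The authors' processing notes name FastQC 0.11.5, HISAT2 2.1.0, StringTie 1.3.3b and DESeq 1.28.0 with the human build hg38, although the genes are mouse genes. The unit is not named by the authors and was read from the deposited values as FPKM, since 98.2% of 26641 genes with an identifier in GENCODE M21 became whole fragments, within 0.05, in all 3 libraries when multiplied by merged exon length on GRCm38. The build of the table's positions is not given in the sources used here. Only 578 genes had a start and end equal to those of that annotation, so promoter coordinates, which are GRCm38.p6, are not on the scale of the table's positions. Whether the kit kept strand is not given either.

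The log2 ratio of FPKM + 1 was compared over 13026 genes averaging 1 FPKM or more, with a 2-fold threshold. The study's own rank test across groups needs replicates and was not used. Intervals are 95% exact Clopper-Pearson limits on the ratio of fragments for folds and exact Poisson limits for levels, and PCR copies are not independent molecules. The scripts were tested on simulated data. Named genes were the 8 genes, the genes around them averaging 1 FPKM or more, the 3 nearest genes in ratio, and lists of related genes and cell type markers. The members and lists were chosen with earlier results of these data known. Alternatives changed the pseudocount, the filter, the scaling and the threshold. The scripts ran under Python 3.11.15, with scipy 1.17.1 for intervals, pandas 2.3.3 and numpy 2.4.6 for tables and matplotlib 3.10.9 for figures.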

Additional observations from a re-analysis of the deposited data

How the results depend on the processing

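With a 1.5-fold threshold 1 of the 8 genes, Ppm1k, was past it in Dspp+/- against WT and 1, again Ppm1k, in Dspp-/- against WT. Under the other alternatives, which changed the pseudocount, the filter or the scaling, the count past 2-fold was 0 in all 3 comparisons, though a mean of at least 5 FPKM left 7 genes without Ppm1k. The median log2 ratio over the 8 genes ran from -0.18 to 0.13 in Dspp+/-, from 0.00 to 0.16 in Dspp-/- and from 0.00 to 0.18 between the mutants. Of 24 ratios, 3 comparisons of 8 genes, 18 kept their sign under 7 alternatives of pseudocount and scaling. Aff1 in both mutants and Klhl8 in Dspp+/- turned negative under median-ratio and housekeeping scaling, and Aff1 in Dspp+/- under upper-quartile scaling as well, to as low as -0.20 for Aff1 and -0.15 for Klhl8 in Dspp+/-. Between the mutants Aff1, at 0.00, turned negative, to -0.01 at the lowest, when scaled without mitochondrial genes or without hemoglobin, immunoglobulin and muscle genes. Nudt9 and Sparcl1 turned positive between the mutants under housekeeping scaling, at 0.03 and 0.05. Housekeeping scaling moved the median of all genes from 0.058 to -0.124 in Dspp+/- and from -0.037 to 0.097 between the mutants. The log2 ratio of Ppm1k ran from 0.34 to 0.79 in Dspp+/- and from 0.37 to 0.86 in Dspp-/-, lowest with a pseudocount of 5. The share of all genes past 2-fold was 12.1%, 9.2% and 3.35% in the 3 comparisons with a pseudocount of 0.1 and 2.62%, 1.39% and 0.553% with a pseudocount of 5, against 7.75%, 5.42% and 1.65%. No paired analysis was possible because each genotype has 1 library. Leaving out a library could not be done for the same reason. Depth limits Klhl8 and Ppm1k most, with 337 and 326 fragments in their lowest libraries.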

Other observations

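Beyond the named neighbours, 9 other genes within 1 Mb of the stretch from Dmp1 to Spp1 averaged 1 FPKM or more, and 18 averaged less. At the far end before Aff1, Ptpn13, which encodes a large tyrosine phosphatase, was at 10.5, 4.47 and 7.49 FPKM in the WT, heterozygous and null libraries, a fold of 0.425 (0.397 to 0.455) and 0.712 (0.672 to 0.755). It was past 2-fold lower in Dspp+/-, where 2.86% of all genes were, with Aff1 at the WT level between it and the matrix genes. Slc10a6, beside Ptpn13, was at 2.56, 3.11 and 2.71 FPKM, and both of its intervals included 1. Gm31048, which lies between Dmp1 and Ibsp in the table, was at 2.84, 1.52 and 1.44 FPKM. Gm42793 was at 7.34, 2.37 and 4.52 FPKM and lies inside Spp1 on the same strand, so their reads cannot be told apart by strand.

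After Pkd2, Thoc2l was at 2.65, 2.37 and 2.87 FPKM. The guanylate-binding protein genes Gbp9 and Gbp4, which respond to interferon, were above WT in both mutants, Gbp9 at 4.58, 6.52 and 5.99 FPKM and Gbp4 at 1.31, 2.28 and 2.18 FPKM. Abcg3, a relative of Abcg2 that lies on chromosome 5, had 38, 108 and 101 fragments, and Lrrc8b was at 2.39, 2.86 and 3.55 FPKM. Within 500 kb of Ppm1k and Abcg2 on chromosome 6, 5 other genes averaged 1 FPKM or more and none was past 2-fold. Herc3, a ubiquitin ligase gene, was at 3.50, 5.24 and 4.61 FPKM and Lancl2 at 4.78, 5.26 and 7.32 FPKM. Pyurf was at 2.96, 3.69 and 3.02, Vopp1 at 2.98, 2.6 and 2.98, and Fam13a at 2.58, 2.35 and 3.07 FPKM. In Dspp-/- all 5 were at or above 0 on the log2 scale, as were Ppm1k and Abcg2, and in Dspp+/- 3 of the 5 were above 0.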
